A study of Mus musculus with 4 samples.

Results

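The 6 genes described here encode transcriptional regulators of heart muscle. They are the MEF2 factor genes Mef2a, Mef2c and Mef2d, the serum response factor gene Srf, the myocardin gene Myocd and Smyd1, which encodes a muscle methyltransferase. They were taken by symbol from the 27998 genes counted in each library, and each symbol matched 1 gene. In the RefSeq annotation of GRCm38.p6, Mef2a (ENSMUSG00000030557) spans chr7:67231163-67376456, Mef2c (ENSMUSG00000005583) chr13:83504017-83667079 and Mef2d (ENSMUSG00000001419) chr3:88141941-88172091. Srf (ENSMUSG00000015605) spans chr17:46546838-46558267, Myocd (ENSMUSG00000020542) chr11:65173608-65269989 and Smyd1 (ENSMUSG00000055027) chr6:71213940-71262281.

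MEF2 and SRF proteins are related DNA-binding factors of the MADS-box family. MEF2 factors bind an A/T-rich element in the control regions of many muscle genes and are held back by class II histone deacetylases, whereas SRF binds the CArG box, which occurs both in growth-response genes and in genes of the contractile apparatus. Myocardin does not bind DNA by itself but joins SRF as a strong co-activator in heart and smooth muscle, and Smyd1, a SET and MYND domain protein of striated muscle, is known as a target of MEF2C in the developing heart and is needed for the growth of the ventricles and the assembly of myofibrils.

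The cells came from mouse embryos of the Swiss Webster strain and of the genotype Mesp1Cre;Rosa26-GFPflox/+, with no other genotype among the groups used here. Cre recombinase made from the Mesp1 locus in early mesoderm switches on GFP permanently, so that a GFP-positive cell descends from a cell that once expressed Mesp1 and need not express it any longer. Living GFP-positive cells, pooled over embryos, were captured with the version 2 kit of 10x Genomics, which counts the 3′ ends of transcripts by unique molecular identifiers (UMIs). There were 4 libraries, 1 per stage, namely an early pair of E8.0 and E8.25 (E for embryonic day) and a late pair of E9.5 and E10.5. The early dissections took the upper body, and the late ones took the heart together with the pharyngeal apparatus, so that stage and region cannot be told apart between the pairs. The retained cells numbered 7118, 2884, 3921 and 7525 in that order, with 70599266 to 151615964 UMIs per library and a median of 15205 to 35216 UMIs per cell. Pairs of libraries shared between 16 and 88 cell barcodes, and each library was handled by itself.

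Cells were placed in 4 compartments by marker genes that exclude the 6 regulators. A cardiomyocyte had at least 5 of 8 sarcomere genes (Tnnt2, Tnni1, Tnnc1, Myl4, Myl7, Myh6, Myh7 and Ttn) at a summed level of 3000 CPM (counts scaled to a total of 1000000 UMIs) or more. An endothelial cell had at least 3 of 6 vessel genes (Cdh5, Pecam1, Tie1, Tek, Esam and Emcn) at 500 CPM or more, and a cardiac progenitor had a UMI of Isl1 or Nkx2-5 and at least 2 of Isl1, Nkx2-5, Tbx5, Fgf8, Fgf10 and Hand2. All remaining cells were called other, and 1 cell at E8.0 that passed both of the first gates was left out. From the earliest to the latest library this gave 305, 52, 458 and 242 cardiomyocytes, 2047, 673, 1102 and 1262 progenitors, 197, 128, 169 and 331 endothelial cells, and 4568, 2031, 2192 and 5690 other cells.

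A class made by such a cut is a range of a score, not a cell type. Of the endothelial cells, 166, 80, 76 and 123 lay under 1000 CPM, and 200, 41, 56 and 76 cells outside that gate lay over 250 CPM. The names were checked against markers that the gates did not use. All 8 further cardiomyocyte genes, Actc1 and Ryr2 among them, reached 20 CPM in the cardiomyocytes of each library, with a summed level of 4764 to 10171 CPM. All 8 further endothelial genes, Kdr and Flt1 among them, did so in the endothelial cells, with 2743 to 2943 CPM. The 8 further progenitor genes separated the progenitor compartment only weakly, since they summed to 296 to 512 CPM there against 143 to 399 CPM in other cells and 717 to 1381 CPM in cardiomyocytes. Markers of neighbouring cells were also present, since the 6 epicardial genes summed to 9.61, 34.4, 139 and 183 CPM in cardiomyocytes and the 5 branchiomeric genes to 22.5, 47.1, 219 and 172 CPM in progenitors, both higher late than early. The word progenitor is therefore used here for the gate and not for a cell type.

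Promoter windows of 300 bases, from 250 before to 50 after the annotated start, were read from RefSeq (GRCm38.p6) and searched on both strands for the CArG box and the MEF2 site, each 10 bases long. The CArG box was present in 535 of 32851 windows (1.63%) and the MEF2 site in 1047 (3.19%). Positions are those of the first base of a match. Among the regulators, the Mef2a window held a MEF2 site that began 2 bases before the start and ran across it, and the Srf window held 2 CArG boxes that began 82 and 62 bases before the start. The starts of these windows lie inside the gene spans given above and not at their outer ends, so that they mark an internal transcript start. The stretches are shown, with the motif in capitals and each read along the strand of its gene, because the Mef2a window holds the letters known for MEF2 factors and the Srf window those known for SRF. No match was found in the 3 windows of Mef2c or in those of Mef2d and Smyd1, and Myocd was not among the windows. Of the 7 muscle targets of SRF and myocardin (described below) that had a window, 2 held a CArG box, namely Myl9 (a myosin light chain of smooth muscle) and Vcl (vinculin), 161 and 227 bases before their starts, and Acta2, Cnn1, Des, Csrp1 and Lmod2 held none. The stretches lie at chr7:67372841-67372870 (minus strand) for Mef2a, chr17:46556205-46556254 (minus) for Srf, chr2:156775293-156775322 (plus) for Myl9 and chr14:20929161-20929190 (plus) for Vcl. A match describes letters and is no evidence of binding.
Mef2a, MEF2 site: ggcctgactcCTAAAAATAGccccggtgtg
Srf, 2 CArG boxes: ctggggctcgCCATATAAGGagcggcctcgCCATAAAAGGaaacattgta
Myl9, CArG box: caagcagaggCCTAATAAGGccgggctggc
Vcl, CArG box: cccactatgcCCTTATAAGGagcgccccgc

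All 6 regulators were higher in cardiomyocytes than in progenitors in each of the 4 libraries, but by very different amounts. Smyd1, Myocd and Mef2c were raised many-fold, whereas Mef2a, Srf and Mef2d were raised by 2.31-, 2.57- and 3.14-fold in the fit over libraries. Levels below are summed UMIs of a compartment in CPM, given from the earliest to the latest stage, and levels of different genes are not compared. In bulk sums of this kind, fewer expressing cells and less RNA per cell cannot be told apart.

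Mef2c was found at 746, 411, 390 and 362 CPM in cardiomyocytes and at 44.7, 36.1, 73.5 and 57.2 CPM in progenitors. The lowest cardiomyocyte value lay well above the highest progenitor value, and the E8.0 cardiomyocytes stood above the other 3. Within libraries the ratio was 16.7, 11.4, 5.31 and 6.32. Across the 4 libraries the log2 fold change was 3.32 (SE 0.383; edgeR quasi-likelihood test with the library as a block, two-sided, adjusted p = 2.93e-05).

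Mef2a was found at 34.8, 20.3, 42.0 and 63.9 CPM in cardiomyocytes against 18.7, 12.3, 17.6 and 22.1 CPM in progenitors, so that the ranges of the 2 compartments overlapped although each library showed the same direction. Its log2 fold change was 1.21 (SE 0.185, edgeR adjusted p = 0.000250). Mef2d was found at 14.5, 14.7, 15.5 and 26.3 CPM against 6.02, 5.47, 4.09 and 7.97 CPM. The Mef2d ranges did not overlap, and the log2 fold change was 1.65 (SE 0.166, edgeR adjusted p = 9.41e-06).

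Srf, the DNA-binding partner of myocardin, was found at 37.6, 38.3, 27.8 and 31.1 CPM in cardiomyocytes and at 13.9, 15.8, 11.4 and 12.9 CPM in progenitors. The ratio was nearly the same in each library, at 2.70, 2.42, 2.44 and 2.40, and the log2 fold change was 1.36 (SE 0.0939, edgeR adjusted p = 2.76e-07).

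Myocd was found at 86.8, 37.8, 42.1 and 43.2 CPM in cardiomyocytes and at 3.27, 1.60, 3.07 and 2.42 CPM in progenitors. Here the E8.0 cardiomyocytes again stood apart from the other 3, and the ranges of the compartments were far from each other. The ratio within libraries was 26.6, 23.6, 13.7 and 17.8, and the log2 fold change was 4.37 (SE 0.252, edgeR adjusted p = 5.57e-08).

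Smyd1 was found at 168, 144, 112 and 233 CPM in cardiomyocytes and at 2.76, 4.06, 6.56 and 8.80 CPM in progenitors. Its cardiomyocyte level was highest at E10.5 and lowest at E9.5, and its progenitor level was higher at each later stage. The ratio was 60.9, 35.5, 17.1 and 26.5, and the fit over libraries gave a 32.0-fold difference (SE 0.268 on the log2 scale, edgeR adjusted p = 2.80e-08).

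The 6 of 6 regulators called higher in cardiomyocytes than in progenitors stand beside 20.2% of the 13370 genes tested outside the gate lists that were called higher and 21.7% called lower. Against other cells, 6 of 6 were likewise higher, beside 19.8% of genes called higher and 23.7% called lower. Other cells held Mef2a at 24.0, 11.0, 21.8 and 18.1 CPM, Mef2c at 10.6, 15.4, 48.9 and 27.3 CPM and Mef2d at 5.76, 5.53, 4.15 and 5.41 CPM. They held Myocd at 1.48, 1.08, 1.55 and 0.715 CPM, Srf at 12.5, 14.3, 11.6 and 9.60 CPM, and Smyd1 at 1.54, 1.72, 1.92 and 1.36 CPM. The log2 fold changes of cardiomyocytes over other cells ran from 1.05 for Mef2a (SE 0.182, edgeR adjusted p = 0.000605) to 6.58 for Smyd1 (SE 0.287, edgeR adjusted p = 2.54e-09). Both sets of 6 calls held in 22 of 22 alternative settings.

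**Figure D1:**
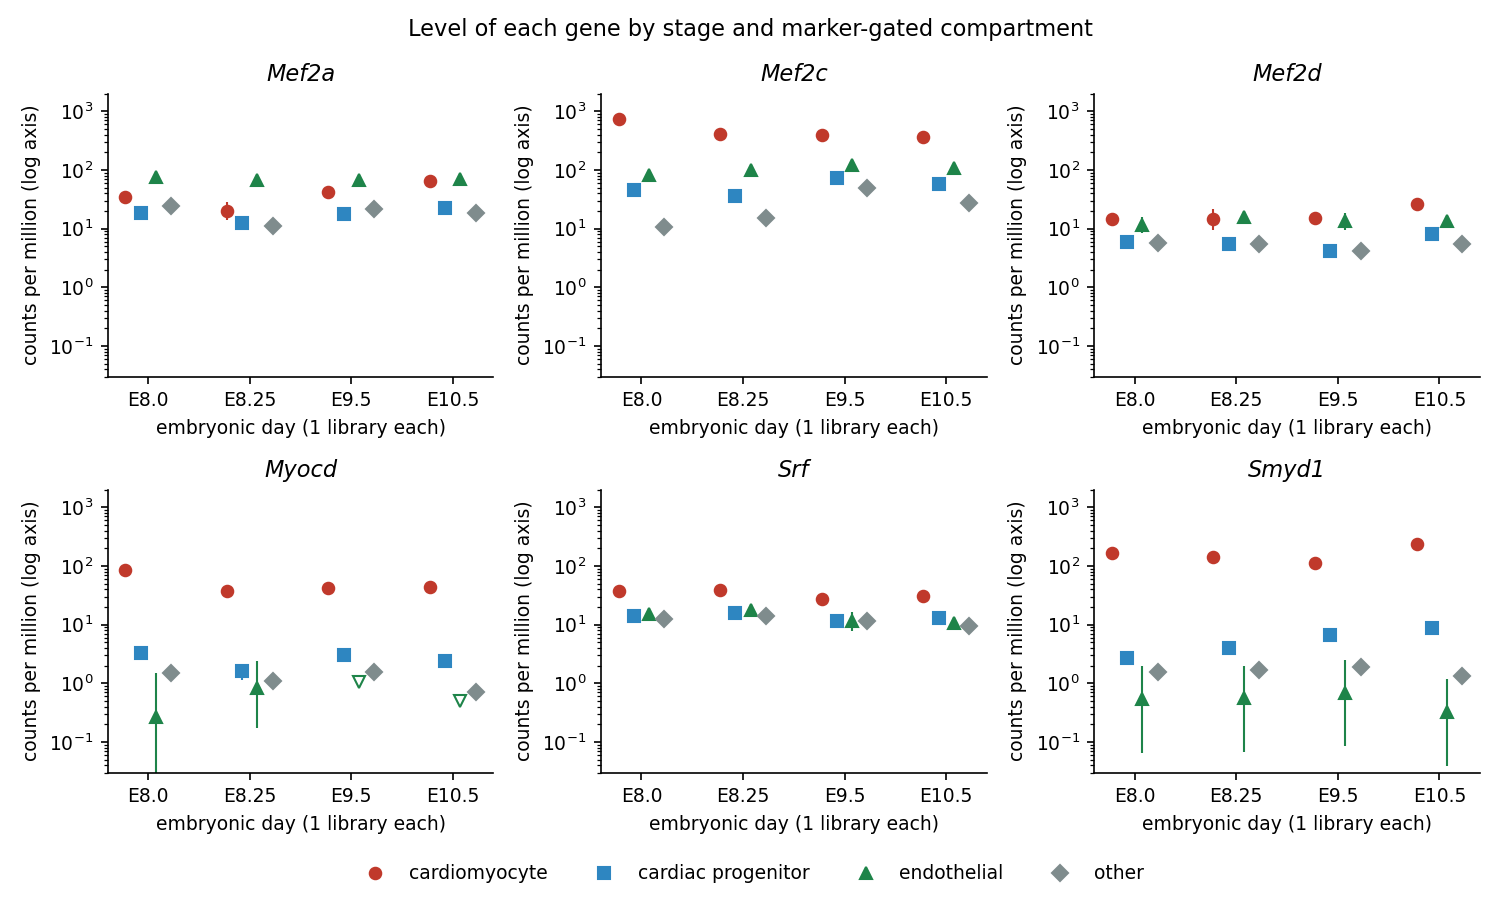
Level of each regulator (CPM, log axis) by library and compartment, with bars for the 95% Poisson interval, which covers counting error only, and open triangles for the level of 3 UMIs where none was counted. Cardiomyocytes lie above the progenitors for each gene in each library, whereas endothelial cells lie highest for Mef2a and below the other cells for Myocd and Smyd1.

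Cardiomyocytes made up 4.28%, 1.80%, 11.7% and 3.22% of the retained cells. They carried 77.4%, 52.1%, 80.9% and 74.1% of the Smyd1 UMIs of the libraries and 62.4%, 34.9%, 73.3% and 58.6% of the Myocd UMIs. For Mef2c their part was 55.0% at E8.0 and 23.0%, 45.6% and 24.1% at the later stages, so that in 3 of 4 libraries most Mef2c UMIs came from cells outside the gate. For Srf, Mef2d and Mef2a their part ran from 2.54% (Mef2a at E8.25) to 30.7% (Mef2d at E9.5).

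In endothelial cells the regulators fell into separate patterns. Mef2a was highest there of the 4 compartments in each library, Mef2c and Mef2d were above the other cells, Srf was close to them, and Myocd and Smyd1 were close to the limit of detection.

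Mef2a was found at 74.3, 66.1, 68.4 and 70.3 CPM in endothelial cells, with a mean of 69.8 CPM (SD 3.49, n = 4 libraries). This was above the cardiomyocytes by 2.14-, 3.26-, 1.63- and 1.10-fold, where the last ratio had a counting interval of 0.939 to 1.29. The log2 fold change of cardiomyocytes over endothelial cells was -0.92 (SE 0.187, edgeR adjusted p = 0.00127), and it was lost when the late libraries were taken alone (-0.43, adjusted p = 0.0555). Over other cells, endothelial Mef2a was higher by 1.97 on the log2 scale (SE 0.181, edgeR adjusted p = 2.63e-06).

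Mef2c was found at 81.6, 99.9, 120 and 107 CPM in endothelial cells, which is below the cardiomyocytes and above the other cells of each library. Cardiomyocytes were higher by 2.21 on the log2 scale (SE 0.375, edgeR adjusted p = 0.000344), and endothelial cells were above other cells by 2.13 (SE 0.373, adjusted p = 0.000528). Mef2d was found at 11.6, 15.6, 13.3 and 13.5 CPM in endothelial cells. It was above other cells in 4 of 4 libraries (log2 fold change 1.37, SE 0.169, edgeR adjusted p = 3.05e-05), and its difference from cardiomyocytes did not pass the test (0.34, SE 0.177, adjusted p = 0.136, cardiomyocytes higher in 3 of 4 libraries).

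Srf was found at 15.1, 17.9, 11.5 and 10.52 CPM in endothelial cells. Cardiomyocytes were above them by 1.25 on the log2 scale (SE 0.104, edgeR adjusted p = 8.55e-07), and the difference from other cells was 0.19 (SE 0.100, adjusted p = 0.136).

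Myocd had 1 UMI in the endothelial cells of E8.0, 3 UMIs at E8.25 and none at E9.5 and E10.5, where 3 UMIs would stand for 1.05 and 0.493 CPM. The cardiomyocyte level was 322-fold (counting interval 57.6 to 12757) and 45.1-fold (14.8 to 224) the endothelial level in the early libraries and at least 40.2-fold and at least 87.7-fold higher in the late ones. Smyd1 had 2 UMIs in the endothelial cells of each library. Cardiomyocytes were 311-, 259-, 161- and 709-fold higher, with counting intervals whose lower ends were 85.9, 70.9, 44.4 and 196. Both differences passed the edgeR test (Myocd adjusted p = 4.11e-08, Smyd1 adjusted p = 1.20e-08).

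Between cardiomyocytes and endothelial cells, 4 of 6 regulators were thus called higher and 1 lower in cardiomyocytes, beside 22.4% of genes called higher and 26.1% called lower. Between endothelial and other cells, Mef2a, Mef2c and Mef2d were called higher and Myocd and Smyd1 lower, beside 21.8% of genes called higher and 21.4% called lower. The latter pair rested on few UMIs. Myocd fell by 2.20 on the log2 scale (SE 0.690, edgeR adjusted p = 0.0207) and lost the call without E8.0 (adjusted p = 0.0712), without E9.5 (0.0752) and without E10.5 (0.0946). Smyd1 fell by 1.78 (SE 0.640, edgeR adjusted p = 0.0387) and lost it without E8.25 (0.109), without E9.5 (0.0525) and without E10.5 (0.141).

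**Figure D2:**
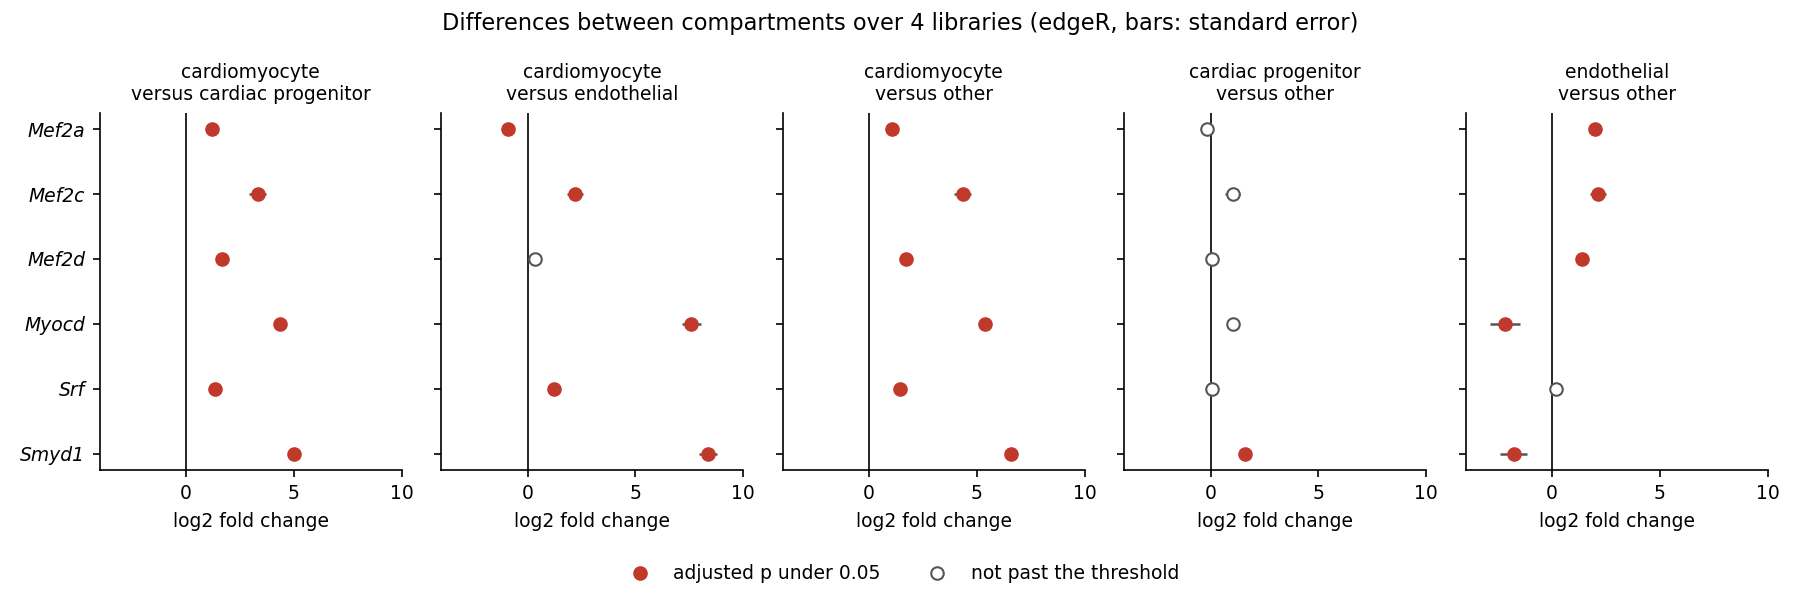
Log2 fold change of each regulator between compartments from the edgeR fit over 16 sums, with bars of 1 standard error and filled points for an adjusted p under 0.05. All 6 are above 0 for cardiomyocytes over progenitors, whereas for progenitors over other cells Smyd1 is the one filled point, at 1.58.

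Smyd1, Mef2c and Myocd were higher in the progenitor gate than in other cells in 4 of 4 libraries, by 2.98-, 2.03- and 2.03-fold in the fit, and 3 of the 6 regulators had an unadjusted p under 0.05. Of the 6, Smyd1 was called higher in progenitors, beside 0.277% of all genes called higher and 0.868% called lower. Its within-library ratio of progenitors to other cells was 1.79, 2.36, 3.42 and 6.48, and the log2 fold change was 1.58 (SE 0.256, edgeR adjusted p = 0.00639). The call was lost without E8.25 (1.72, adjusted p = 0.0725) and without E10.5 (1.28, adjusted p = 0.0835). It was also lost without the replicate block (1.64, adjusted p = 0.109). The 8 sarcomere genes of the cardiomyocyte gate summed to 196, 188, 386 and 278 CPM in progenitors and to 126, 95.9, 424 and 177 CPM in other cells, with the progenitors higher in 3 of 4 libraries, and the part of this in the Smyd1 difference was not tested.

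Myocd and Mef2c did not pass the test. The Myocd ratio was 2.20, 1.48, 1.98 and 3.39 (log2 fold change 1.02, SE 0.248, edgeR adjusted p = 0.0743), and the Mef2c ratio was 4.20, 2.35, 1.5 and 2.10 (1.02, SE 0.355, adjusted p = 0.255). Of 22 alternative settings, 6 called Myocd and 2 called Mef2c. For Mef2a, Mef2d and Srf the log2 fold changes were -0.17, 0.05 and 0.08, with edgeR adjusted p = 0.926, 0.996 and 0.934.

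Progenitors were further divided by genes that mark the back and the front of the second heart field. Those with a UMI of the posterior genes Tbx5, Osr1, Foxf1 or Wnt2 and none of the anterior genes Fgf8, Fgf10 and Tbx1 numbered 748, 78, 328 and 496, and those with the reverse numbered 558, 300, 409 and 300. None of the 6 regulators was called between these 2 groups by edgeR or by DESeq2, and 1 had an unadjusted p under 0.05, beside 1.22% of 11456 genes called higher and 1.98% called lower in the posterior group. Mef2c had the unadjusted p, with 42.0 CPM (SD 19.9, n = 4) in the posterior and 59.8 CPM (SD 16.2, n = 4) in the anterior group. It was lower in the posterior group in 4 of 4 libraries (log2 fold change -0.65, SE 0.237, edgeR adjusted p = 0.224). Smyd1 stood at -0.81 (SE 0.566, adjusted p = 0.517), and the other 4 between 0.14 and 0.17.

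Whether a compartment difference changed from the early to the late pair of libraries was tested as an interaction. For cardiomyocytes over other cells, 1 of 6 regulators was called, beside 5.24% of all genes. This was Mef2c, whose ratio was 70.0, 26.7, 7.97 and 13.2, with a late minus early difference of -2.20 on the log2 scale (SE 0.375, edgeR adjusted p = 0.0107). Both ends moved, since the cardiomyocyte level went from 746 and 411 to 390 and 362 CPM and the level of other cells from 10.6 and 15.4 to 48.9 and 27.3 CPM. The call was lost without E8.0 (-1.38, adjusted p = 0.0680), without E9.5 (-2.01, adjusted p = 0.0612) and without E10.5 (-2.38, adjusted p = 0.0574).

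None of the 6 was called in the interactions of cardiomyocytes with progenitors (beside 4.09% of all genes), cardiomyocytes with endothelial cells (3.77%), progenitors with other cells (0.0%) and endothelial with other cells (2.89%). In the same order, 2, 2, 2 and 1 of the 6 had an unadjusted p under 0.05. The Mef2c difference between cardiomyocytes and progenitors changed by -1.30 (edgeR adjusted p = 0.0770), and that of Smyd1 by -1.13 (adjusted p = 0.0893). For Mef2a between cardiomyocytes and endothelial cells the change was 0.96 (edgeR adjusted p = 0.0907), where the cardiomyocyte level was 34.8 and 20.3 CPM early and 42.0 and 63.9 CPM late.

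Part of the Mef2c in late other cells came from cells with 2 or more of 6 macrophage genes (Ptprc, Tyrobp, Fcer1g, C1qb, Csf1r and Cx3cr1). There were none of these cells in the early libraries, 18 at E9.5 and 91 at E10.5. They held Mef2c at 468 CPM (95% Poisson interval 410 to 531) and 339 CPM (317 to 363), close to the cardiomyocyte values of 390 and 362 CPM, and had no Myocd UMI at E9.5 and 0.396 CPM of Myocd at E10.5. The 6 macrophage genes summed to 0.322, 0.679, 29.1 and 78.2 CPM over all other cells. Without these cells, in an alternative chosen after the data had been seen, Mef2c in other cells was 10.6, 15.4, 43.2 and 18.9 CPM, and the late minus early difference was -1.86 (SE 0.405, edgeR adjusted p = 0.0270).

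Among the other cells, blood cells (globin genes at 50000 CPM or more) numbered 67, 315, 4 and 1026. Their Mef2c was 1.76, 3.32 and 1.57 CPM at E8.0, E8.25 and E10.5, and the 4 cells of E9.5 gave 171 CPM. Cells with 2 or more of the branchiomeric muscle genes Lhx2, Msc, Myf5, Myod1 and Tcf21 numbered 29, 49, 503 and 780, and in them Mef2c was 5.55, 18.4, 50.4 and 13.6 CPM. Smyd1, although a gene of striated muscle, was low in these branchiomeric cells at 2.77, 2.79, 0.961 and 1.49 CPM. These values rest on 2, 5, 9 and 18 UMIs. Srf in the branchiomeric cells was 12.5, 14.5, 11.5 and 13.8 CPM (95% Poisson interval at E10.5 11.8 to 16.1). All other cells together, blood cells included, stood at 12.5, 14.3, 11.6 and 9.60 CPM. At E10.5 the blood cells held 21.9% of all UMIs of the library and 3.24% of its Srf UMIs. The gap at E10.5 is thus measured against other cells with the blood cells included. No Srf level is given here for the other cells outside the blood gate. The part of the blood cells in the gap was not tested.

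With 1 library per stage no test between stages was possible, and the ratios that follow carry counting error only. Between E8.0 and E10.5, 2 of 6 regulators were at least 2-fold lower in cardiomyocytes with an interval that left out no change, beside 5.41% of 11024 genes lower and 15.4% higher by the same rule. Mef2c stood at -1.04 on the log2 scale (95% interval -1.13 to -0.96) and Myocd at -1.01 (-1.27 to -0.75). Mef2a, Mef2d and Smyd1 were higher by 0.88, 0.86 and 0.47, and Srf stood at -0.27 with an interval of -0.60 to 0.05. The median of all genes moved by 0.11 in cardiomyocytes and by 0.16 in progenitors on the same scale.

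The steps within 1 dissected region were of different kinds for these genes. From E8.0 to E8.25, cardiomyocyte Myocd was lower by more than 2-fold (-1.20, interval -1.59 to -0.83), and Mef2c and Mef2a stood at -0.86 and -0.78, while Mef2d, Srf and Smyd1 stood at 0.02, 0.03 and -0.22. From E9.5 to E10.5, Smyd1 was higher by more than 2-fold (1.05, interval 0.92 to 1.19) and Mef2d and Mef2a by 0.76 and 0.61, while Mef2c, Myocd and Srf stood at -0.11, 0.04 and 0.16. The gated cardiomyocytes themselves differed between stages, with a median summed level of the sarcomere genes of 16986, 10579, 30577 and 27759 CPM, and the part of this in the stage ratios was not tested beyond the levels by sarcomere class below.

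In progenitors, the E10.5 level of Smyd1 was 3.20-fold that of E8.0 (log2 1.68, interval 1.35 to 2.01), the 1 of 6 past 2-fold, beside 17.4% of 13892 genes higher and 5.81% lower. None of the 6 was past 2-fold in endothelial cells, beside 11.5% of 10698 genes higher and 4.37% lower. In other cells Mef2c was higher by 1.36 (interval 1.25 to 1.47) and Myocd stood at -1.05 (-1.49 to -0.62), beside 15.7% of 15661 genes higher and 9.18% lower. Blood cells held 2270626 of the 93157584 UMIs of other cells at E8.0 and 28072258 of 96448302 at E10.5. They held 1 of 138 and 6 of 69 Myocd UMIs, and 4 of 992 and 44 of 2633 Mef2c UMIs. Both ratios thus include a late level lowered by more blood. By these counts, the fall of Myocd in other cells outside the blood gate did not reach 2-fold. Its place past 2-fold thus holds only with blood cells counted among the other cells.

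The cardiomyocyte gate is a cut on a continuous score, so the regulators were also followed over 6 classes of the summed sarcomere genes, in cells outside the endothelial and blood gates. Within the gate, 50, 18, 65 and 40 cardiomyocytes lay under 6000 CPM, and 93, 22, 201 and 150 cells outside it lay over 1500 CPM. In the class from 1000 to 3000 CPM, just outside the gate, Mef2c reached 30.2%, 21.3%, 40.1% and 32.4% of its level in cells of 10000 CPM and over. Myocd reached 16.6%, 13.3%, 21.9% and 12.1%, and Smyd1 6.18%, 5.30%, 6.58% and 6.54%. The part was larger for Mef2c than for Myocd and larger for Myocd than for Smyd1 in each library, as a description with no test, and at E8.25 the Myocd and Smyd1 values of this class rested on 10 and 15 UMIs in 42 cells. The classes are no order in time. Srf (43.8% to 72.3%), Mef2a (42.8% to 58.5%) and Mef2d (28.8% to 52.1%) were also found there. From the class under 300 CPM to the cells of 10000 CPM and over, the level of Smyd1 differed by 100- to 181-fold, Myocd by 47.3- to 84.3-fold and Mef2c by 10.2- to 61.1-fold, against 1.72- to 3.41-fold for Mef2a, 2.75- to 4.94-fold for Mef2d and 2.47- to 3.19-fold for Srf, as the lowest and highest of the 4 libraries.

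At E8.0 the Mef2c level over the 6 classes, from the lowest to the highest, was 13.5, 82.2, 249, 589, 868 and 730 CPM. At E10.5 it was 35.9, 54.5, 119, 261, 440 and 323 CPM, so that it lay below the E8.0 values in each class but the lowest, and the top class held less than the one before it in both libraries. Cells with 2 or more macrophage genes, unless past the blood gate, stayed in these classes. They numbered 0 at E8.0 and 91 at E10.5, where their median level of the sarcomere genes was 62.1 CPM. Their part in the Mef2c level of the lowest class was not tested. Smyd1 at E8.0 was 1.49, 5.35, 13.2, 73.3, 211 and 221 CPM, and at E10.5 it was 1.55, 9.40, 18.3, 56.3, 281 and 280 CPM. Myocd was 1.53, 6.30, 16.3, 62.7, 108 and 77.2 CPM at E8.0 and 0.853, 2.15, 6.18, 13.4, 53.5 and 49.6 CPM at E10.5, below E8.0 in each of the 6 classes. The classes of 10000 to 30000 and of 30000 CPM and over held 19 and 9 cells at E8.25, and 64 or more in the other libraries. Ambient RNA and undetected doublets could add UMIs to cells outside the gate, and their part was not tested.

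**Figure D3:**
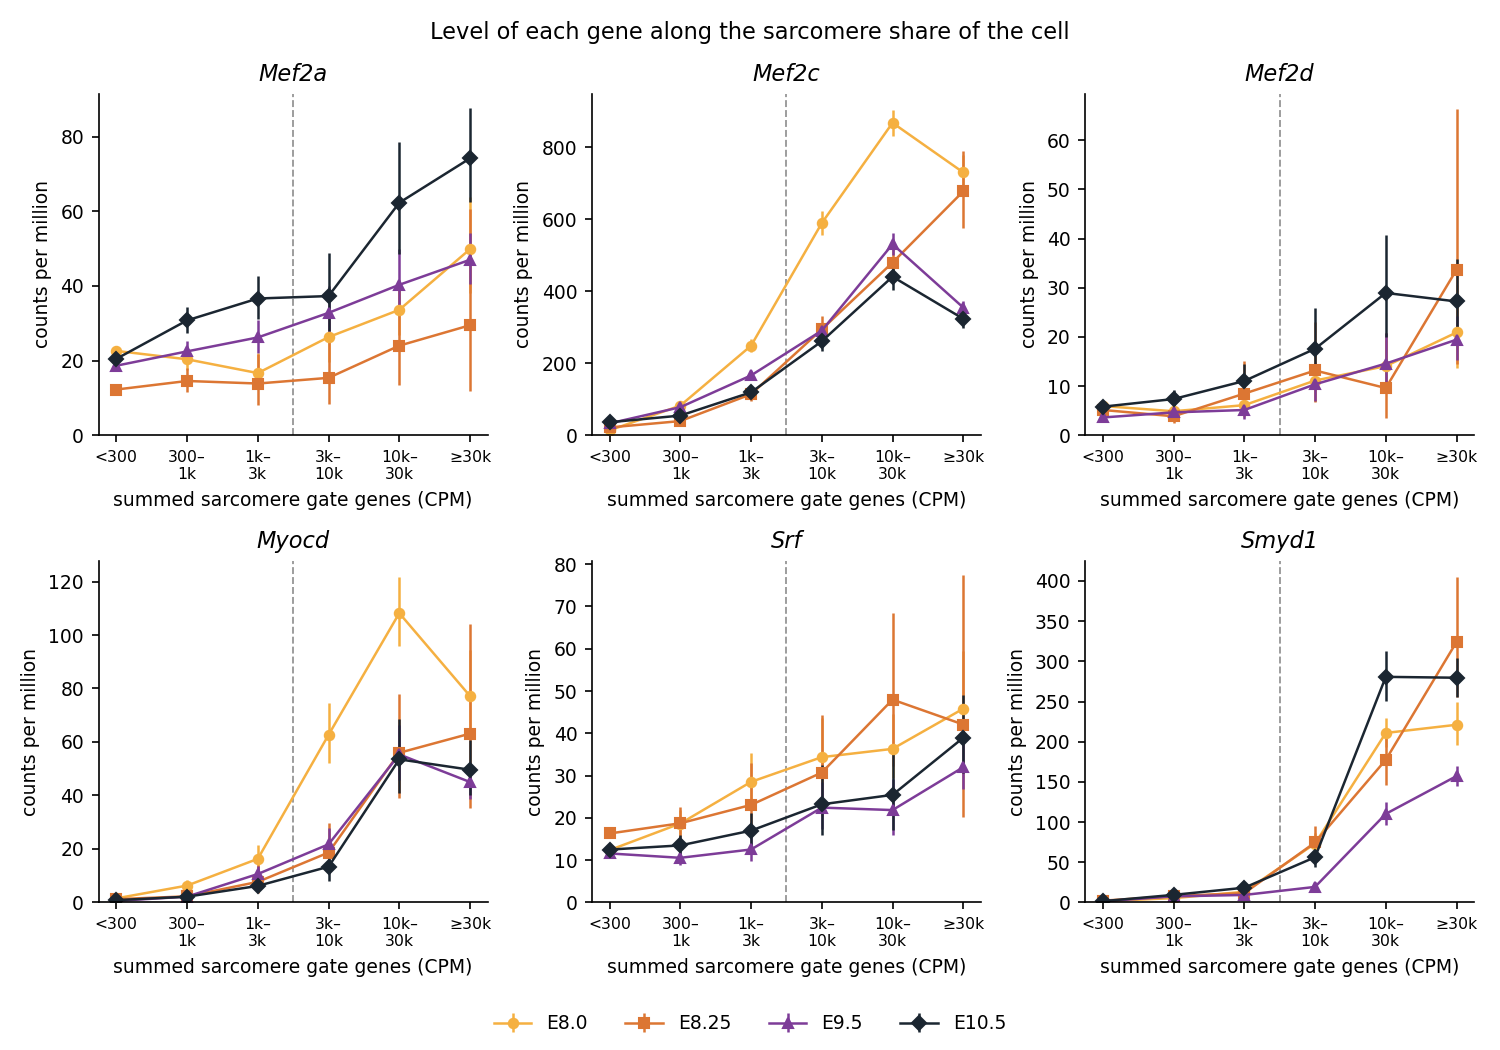
Level of each regulator (CPM, linear axis from 0) in 6 classes of cells by the summed level of the 8 sarcomere genes (CPM), with 1 line per library, 95% Poisson intervals as bars and a dashed line at the gate of 3000 CPM. Smyd1 goes from 13.2 to 73.3 CPM across the gate at E8.0 and from 9.30 to 19.3 CPM at E9.5, where it reaches 110 CPM in the next class, Mef2c is already at 249 CPM before it, and Srf at E8.0 is 3.19-fold higher in the cells of 10000 CPM and over than in the lowest class.

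Cardiomyocytes with more UMIs of the ventricular genes Myl2, Irx4 and Hey2 numbered 159, 22, 194 and 65, and those with more of the atrial and inflow genes Nr2f1, Nr2f2, Stard10 and Sln numbered 64, 21, 225 and 142. Smyd1 was found at 207.5, 276, 162 and 323 CPM in the former and at 99.4, 46.0, 62.4 and 179 CPM in the latter, and was higher in the ventricular group of each library. The ratio was 2.09 (interval 1.71 to 2.56), 6.01 (4.17 to 8.88), 2.59 (2.23 to 3.02) and 1.80 (1.56 to 2.08). The sarcomere level moved with this split, with medians of 24836, 20230, 37576 and 30143 CPM in the ventricular and 11955, 5495, 15018 and 30089 CPM in the atrial group. Among cells of 30000 CPM and over, Smyd1 was 155 against 151 CPM at E9.5 (160 and 68 cells) and 390 against 225 CPM at E10.5 (33 and 71 cells). These are descriptions of 1 library per stage, with no test.

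Of the other regulators, at E9.5 Mef2d (ratio 2.09, interval 1.43 to 3.11) and Srf (1.38, 1.04 to 1.84) were higher and Mef2c (0.783, 0.726 to 0.844) was lower in the ventricular group. At E8.0, E8.25 and E10.5 the intervals of the ratios of Mef2a, Mef2c, Mef2d, Myocd and Srf each included no difference.

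**Figure D4:**
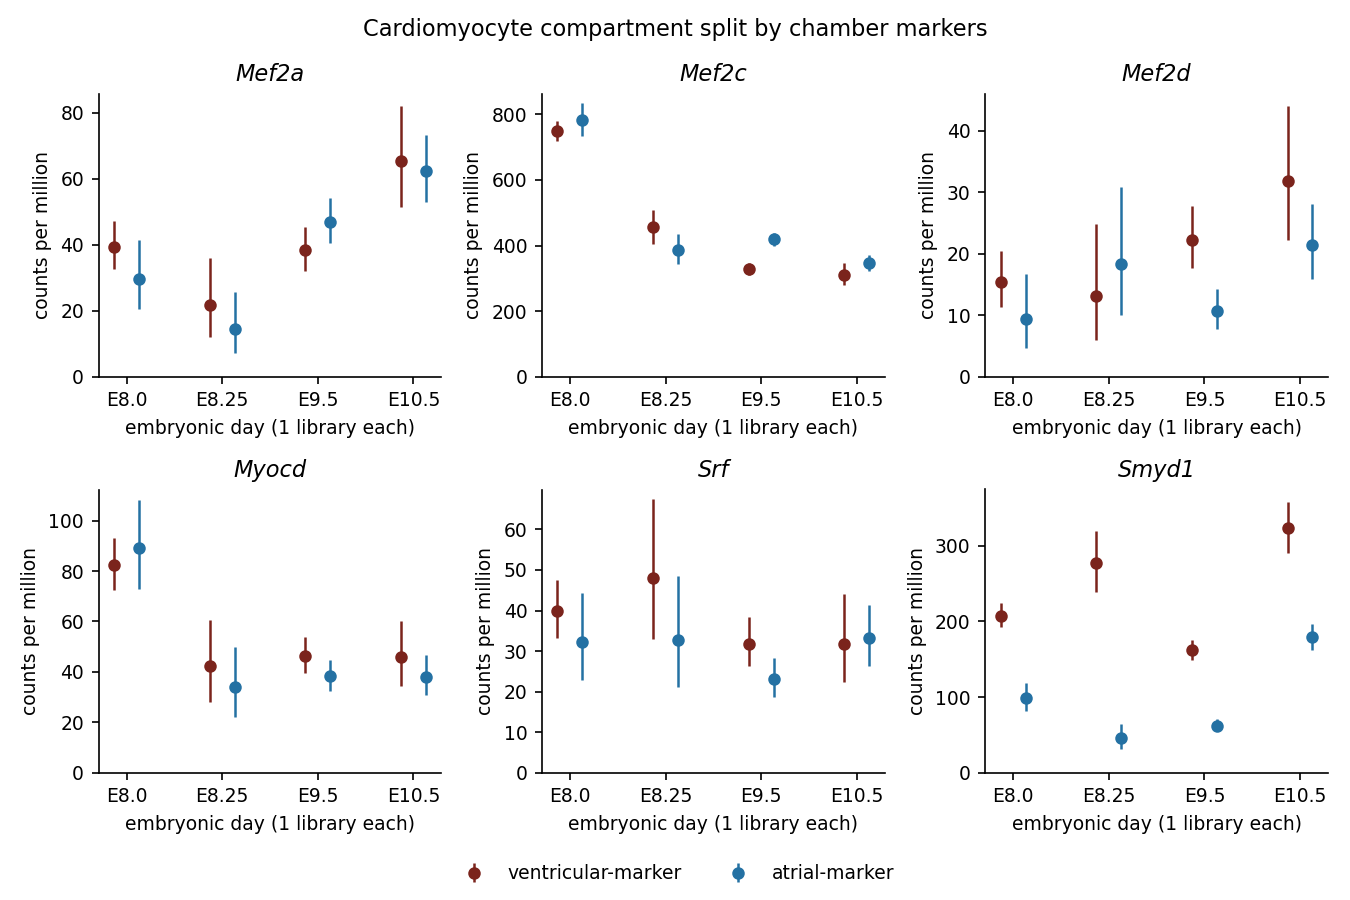
Level of each regulator (CPM, linear axis from 0) in cardiomyocytes with more ventricular or more atrial and inflow marker UMIs, by library, with 95% Poisson intervals. Smyd1 is higher in the ventricular group in each library, for example 323 against 179 CPM at E10.5.

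Endothelial cells with a UMI of Nfatc1, a gene of the endocardium, numbered 30 to 141 per library, and those without numbered 98 to 190. Mef2c was found at 80.9, 114, 88.3 and 61.4 CPM with Nfatc1 and at 82.0, 95.1, 142 and 142 CPM without it. The groups were close at E8.0 and E8.25, with ratios of 1.01 and 0.836 for cells without over cells with Nfatc1, and apart at E9.5 (1.61, interval 1.27 to 2.04) and E10.5 (2.32, 1.94 to 2.79). Mef2a was found at 86.9, 80.1, 71.2 and 69.9 CPM with Nfatc1 and at 67.4, 61.2, 66.5 and 70.7 CPM without.

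The share of cells with at least 1 UMI depends on depth, so each cell was thinned to 8000 UMIs and the unthinned share is given beside it. Mef2c was detected in 97.4%, 86.5%, 86.3% and 83.3% of thinned cardiomyocytes (99.0%, 92.3%, 94.3% and 93.0% unthinned). Smyd1 was detected in 62.4%, 57.7%, 51.3% and 73.5% (79.3%, 75.0%, 67.9% and 81.4%), and Myocd in 43.5%, 26.9%, 29.3% and 27.0% (68.2%, 69.2%, 45.6% and 45.9%). Mef2a was detected in 49.3% of thinned cardiomyocytes at E10.5 against 21.2% to 26.6% in the 3 earlier libraries.

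In progenitors the thinned share with Smyd1 was 2.37%, 2.97%, 3.82% and 5.66%. Blood cells, which serve as a background because they are not muscle, gave 1.54%, 0.637% and 1.02% at E8.0, E8.25 and E10.5, and endothelial cells gave 0.559%, 0.787% and 0.332%. For Mef2c the progenitor share was 19.0%, 19.2%, 28.0% and 24.2%. In blood cells the thinned shares at E8.25 and E10.5 were 2.55% and 1.53% for Mef2c and 0.318% and 0.203% for Myocd. Of thinned progenitors with a Mef2c UMI, 31 of 377, 3 of 129, 19 of 300 and 16 of 286 also had a Myocd UMI, which is 8.22%, 2.33%, 6.33% and 5.59%. Among those without a Mef2c UMI the share was 1.18%, 1.10%, 1.30% and 0.891%. These shares are a description with no test, and the E8.25 value rests on 3 cells. At E8.0 the cells with both UMIs had a median of 750 CPM of the sarcomere genes, and those with neither had 125 CPM.

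Genes of the same pathways were followed as lists in the comparison of cardiomyocytes with progenitors. The median log2 fold change over all genes in that comparison was -0.04. Of 10 muscle genes known as MEF2 targets 8 were tested and 8 were called higher, with a median of 7.09. They included Nppa (atrial natriuretic peptide, 8.38), Myl2 (the ventricular myosin light chain, 7.78), Ankrd1 (7.30) and Csrp3 (7.27). Of 10 muscle targets of SRF and myocardin 9 were tested and 9 were called higher, with a median of 3.90, among them Lmod2 (7.10), which promotes the growth of actin filaments in the sarcomere, and the smooth muscle genes Cnn1 (6.06), Acta2 (5.65) and Myl9 (4.61). Both lists hold muscle genes chosen with earlier results of these data known, and the cardiomyocytes were gated on sarcomere genes. Higher calls were thus largely set in advance and say nothing about the activity of MEF2 factors or SRF.

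Beside the 20.2% of all genes called higher and 21.7% called lower in this comparison, the counts of the smaller lists say little about the lists themselves. Of the growth-response targets of SRF, 1 of 4 tested genes was called higher (Fos, 2.21), with a median of 0.43. In a list of 7 genes named as SRF cofactors, 4 were called higher and 1 lower, with a median of 0.52. Those higher were Hopx (2.80), which encodes a homeodomain protein that binds SRF, Mkl2 (0.60), a myocardin-related co-activator, Elk1 (0.52), an ETS partner of SRF, and Lmod1 (5.33), which encodes an actin-binding protein of smooth muscle and is known as a target of SRF and myocardin more than as a cofactor. Elk3, another ETS partner, was the one lower (-1.08). Among 5 corepressors of MEF2, Hdac9 (3.99) and Hdac5 (0.97) were called higher and Hdac7 (-0.85) and Hdac4 (-0.64) lower. Of 5 genes of the Smyd family and the Smyd1 partner Naca, Smyd2 (0.41) was called higher and Smyd5 (-0.72) and Naca (-0.30) lower. Mef2b, the remaining MEF2 gene, had no UMI in the compartments and was not tested.

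Between endothelial and other cells, 3 of 9 targets of SRF and myocardin were called higher, namely Actg2 (1.21), Csrp1 (1.17) and Vcl (0.86), and 5 were called lower, among them Acta2 (-2.41), Tagln (-2.10) and Myl9 (-1.80). Elk3 was higher in endothelial cells (3.60), as was Hdac7 (2.05), a deacetylase of vascular endothelium, and Hdac9 was lower (-2.78). Of the growth-response targets, Junb (2.16) and Ier2 (0.93) were higher. Between progenitors and other cells, Hrc, a calcium-binding protein of the sarcoplasmic reticulum, was the 1 gene called over all of these lists (1.51).

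Genes with the pattern most like each regulator were ranked by Pearson's r of log2 CPM over the 16 sums, among 5360 genes with a mean of at least 20 CPM. The 16 sums share libraries and depth, and no p is given. Outside cardiomyocytes, Myocd and Smyd1 stayed below the 10 CPM that was added before the log was taken. Their r thus rests mainly on the split of the cardiomyocyte sums from the rest. Smyd1 was most like RP23-455C13.7 (0.993), Fbxo32 (0.992), Cnn1 (0.991), Nexn (0.991) and Rrad (0.989), and Myocd most like Cap2 (0.988), RP23-455C13.7 (0.984), Nexn (0.982), the gate gene Ttn (0.982) and Fbxl22 (0.979). Srf was most like Vps37b (0.961), Abracl (0.949), Ankrd1 (0.946), Dstn (0.945) and Cap2 (0.943).

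Of the MEF2 genes, Mef2a was most like Itgb1 (0.965), Frmd4b (0.964), Pea15a (0.963), Akap12 (0.947) and S100a13 (0.944). Mef2c was most like Qk (0.958), 4921524J17Rik (0.946), Pdcl3 (0.942), Trappc6b (0.941) and Wbp2 (0.936), and Mef2d most like Ctnnd1 (0.928), Myl6 (0.927), Vcl (0.918), Itga6 (0.914) and Pofut2 (0.914). Among the regulators themselves, r was 0.976 for Myocd with Smyd1, 0.934 for Myocd with Srf, 0.929 for Srf with Smyd1, 0.854 for Mef2c with Myocd, 0.761 for Mef2a with Mef2d and 0.0999 for Mef2a with Myocd.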

How the data were processed

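Transcripts of single cells were measured in 4 libraries, 1 per stage. According to the submitters' processing notes, the authors aligned reads to mm10 with Cell Ranger 3.1.0, and they deposited raw UMI counts per gene and cell for barcodes called as cells, not normalized. No value column was left unmapped (0). Intervals cover counting error only, and Myocd and Smyd1 rest on few UMIs in endothelial cells.

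Cells with at least 1000 genes and at most 10% mitochondrial UMIs were retained, which removed 4, 2, 3 and 28 cells. Doublets were scored with Scrublet (scanpy 1.11.5), whose own threshold marked 2.02%, 0.305%, 0.197% and 1.69% of cells. The highest scores were therefore removed at 0.8% per 1000 cells (459, 70, 131 and 517 cells). Cells were gated by summed markers, in CPM of their own UMIs, and raw counts were summed per library and compartment.

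The 16 sums were tested with edgeR 4.0.16 in R 4.3.3 (TMM scaling, filterByExpr, quasi-likelihood test, two-sided), with compartment and library as terms, 9 residual degrees of freedom and Benjamini-Hochberg adjustment over 13401 genes. The library served as the replicate block because the 4 sums of a library come from 1 pool of cells. Replication is therefore over 4 stages, with pooled embryos in each. With the library as a block, p-values measure how far compartment differences vary between these libraries. They do not measure the spread between embryos of a stage. Interactions compared E9.5 and E10.5 with E8.0 and E8.25. The fit was tested on simulated data. DESeq2 1.42.0 was an alternative for the compartment contrasts, with other filters, gates, scalings, left-out libraries and left-out blood cells. Leaving out the macrophage-marker cells was added after the data had been seen. Shares, bins and stage ratios have no test. Likeness used log2 of CPM plus 10. Scripts used Python 3.11.15.

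The 6 regulators were named in every comparison and other genes only from lists of cofactors, partners and targets, or as the 5 nearest patterns. The members and lists were chosen with earlier results of these data known.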

Additional observations from a re-analysis of the deposited data

Results flagged for a closer look

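Among 24 groups of 4 library values (6 regulators in 4 compartments), 3 held a value far from the other 3, by a gap to the nearest value that, as a part of the group's range, was above Dixon's 95% critical value. For independent values from a single normal distribution, chance gives such a value in about 1 in 20 groups. The values here come from different stages and dissected regions, and groups share the same sums, so that this rate does not strictly apply. Mef2c in cardiomyocytes stood at 746 CPM at E8.0, with a gap of 0.872 of the range. Myocd in cardiomyocytes stood at 86.8 CPM at E8.0, with a gap of 0.889. Mef2d in cardiomyocytes stood at 26.3 CPM at E10.5, with a gap of 0.917. The cause was not tested in these 3 cases.

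The difference of Mef2c between cardiomyocytes and other cells changed from the early to the late libraries by -2.20 on the log2 scale, and this change was itself tested as an interaction (edgeR adjusted p = 0.0107). It called Mef2c in 12 of 15 alternatives, whose values ran from -2.93 to -1.38.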

How the results depend on the processing

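Of the log2 fold changes recomputed under the alternatives, 807 kept their direction and their side of the threshold, 17 became significant, 18 lost significance and 11 changed sign. Each alternative of cardiomyocytes against progenitors and other cells called 6 regulators. For progenitors against other cells (1 called), no regulator was called without the replicate block (0), 2 were with no filter on low counts, in the early libraries alone, with the cardiomyocyte gate at 10000 CPM, with the endothelial gate at 1000 CPM, with 3 of 6 progenitor genes and without doublet removal, and 3 with the gate on thinned counts. Leaving out 1 library gave 0 to 1 (0 without E8.25 or E10.5). For endothelial against other cells (5 called), 3 were called in the early libraries alone and with the endothelial gate at 1000 CPM, and 3 to 4 with 1 library left out (3 without E9.5 or E10.5). For posterior against anterior progenitors (0 called), Smyd1 was called in the late libraries alone (1), and Mef2c and Smyd1 on thinned counts (2). Over the interactions together, a regulator was counted once for each interaction that called it, so that these are not numbers of regulators. There was 1 such call with all libraries, 2 with 3 of 6 progenitor genes, 6 with no filter, and 0 to 3 with 1 library left out (3 without E8.25). The replicate block changed no other call.

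Changes of sign concerned differences that were not called. For progenitors against other cells, Mef2d stood at -0.00454 in the early libraries, -0.0383 on thinned counts and, with 1 library left out, between -0.0173 (without E10.5) and 0.103. Between posterior and anterior progenitors, Mef2d stood at -0.0122 on thinned counts and, with 1 library left out, between -0.00137 (without E8.0) and 0.244. Myocd there stood at -0.67 in the early libraries, -0.0184 with the cardiomyocyte gate at 10000 CPM, -0.17 on thinned counts and between -0.35 (without E9.5) and 0.77 with 1 library left out, and Srf at -0.00985 in the early libraries and -0.0385 on thinned counts.

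Counts over all genes moved more. Without the replicate block, cardiomyocytes differed from progenitors in 2186 genes (5605 with it), from endothelial cells in 3901 (6480) and from other cells in 2332 (5818), endothelial from other cells in 3043 (5772), progenitors from other cells in 1 (153) and posterior from anterior progenitors in 37 (367). DESeq2 called 300 and 565 genes in the last 2 comparisons, and no filter 287 and 774. For progenitors against other cells, 276 genes were called in the early libraries alone, 353 with the endothelial gate at 1000 CPM, 69 without blood cells, 55 without E8.25 and 66 without E10.5. In the early libraries alone, cardiomyocytes differed from progenitors in 3617 genes. For posterior against anterior progenitors, the late libraries alone gave 744 genes, and leaving out E8.25, E9.5 or E10.5 gave 56, 78 and 229. Without E8.0 the interactions called 4, 6, 5, 0 and 1 genes, against 547, 504, 701, 0 and 386 with all libraries, in the order of cardiomyocytes with progenitors, endothelial and other cells, then progenitors and endothelial cells with other cells. In that order they called 89, 77, 81, 0 and 34 without E8.25, 120, 56, 240, 0 and 38 without E10.5, and 883, 853, 1065, 3 and 690 without blood cells. Library totals gave 342, 329 and 457 for the first 3 and 250 for the last, and no filter gave 946 and 837 for the first 2 and 99 and 768 for the last 2. With the endothelial gate at 1000 CPM, those with endothelial cells called 262 and 128. With library totals in place of TMM scaling, the share of higher calls went from 38.1% to 48.6% for posterior progenitors, from 49.1% to 64.8% for the interaction of cardiomyocytes with other cells and from 39.9% to 50.8% for that of endothelial with other cells. For cardiomyocytes at E10.5 against E8.0, Mef2c stood at -1.19 with TMM scaling and -1.16 with the gate at 10000 CPM, and Smyd1 at 0.33 with TMM scaling. The cause of these changes was not tested.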
